A study of Mus musculus with 18 samples.

Results

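The comparison asked, for each gene, whether the response of the liver to dietary fenofibrate depended on Ppara. It subtracted the response of wild type mice from the response of Ppara-null mice, so that a value below 0 marks a gene that rose less, or fell more, in the null, and a value above 0 the opposite. It used 12 of the 18 libraries of the series, 3 in each of 4 groups. It took every locus with a gene identifier, 31099 of 52463 loci, and 14241 of these passed the filter on low counts and were tested. The groups were mice with intact Ppara (Ppara+/+, wild type) and mice lacking it (Ppara-/-, null), each on a control diet or on chow with 0.5% fenofibrate for 48 h. All mice were 8 weeks old, of a mixed C57BL/6 and SV129 background, and liver RNA was sequenced as stranded libraries of polyadenylated RNA. The labels name no tissue-specific driver for the null allele, and the null control mice carry it as well.

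PPARA is a nuclear receptor of hepatocytes that is switched on by fatty acids and by fibrate drugs such as fenofibrate, a lipid-lowering compound. It binds DNA together with RXR at direct repeats of AGGTCA spaced by 1 base, and it is known for raising genes of fatty acid uptake, oxidation and ketone body formation in fasting. CAR and PXR are related receptors that sense foreign compounds and raise drug-metabolising enzymes in the same cells. An interaction below 0 can come from a rise in wild type that is smaller in the null, and one above 0 from a fall in wild type or a rise in the null, so group levels or both arms are given for the genes the results turn on.

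Each library was a pool of livers. The pools held 5 livers each in wild type control and 3 each in wild type fenofibrate, against 4, 4 and 5 in null control and 3, 3 and 4 in null fenofibrate, so pool size and diet cannot be told apart. The spread between libraries is the spread between pools, and with 3 against 3 the smallest exact permutation p is 0.1. Total counts ran from 68.9 to 150.7 M per library, and from 31.8 to 41.6 M without the major urinary protein (Mup) loci. The Mup share of counts was 71.4% ± 2.16 (SD, n = 3) in wild type control, 54.0% ± 5.21 in wild type fenofibrate, 62.2% ± 2.71 in null control and 64.6% ± 4.15 in null fenofibrate. Levels are given as CPM, counts scaled to a common total, on a TMM-scaled library size, which sets the middle of the interaction near 0 (median gene 0.03 on the log2 scale). Scaled to library totals instead, the median gene moved to -0.73, and list medians above 0 are given with their value under that scaling. Within a group the libraries correlated at 0.981 to 0.992, but null fenofibrate library 1 stood apart in acute phase genes, and results that rest on it are given with and without it.

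The targeted gene was read first. Ppara (chr15:85735564-85806851, plus strand, mm10, the build of all gene coordinates given here) measured 50.5, 66.1 and 60.4 CPM in wild type control, 57.3, 83.5 and 82.2 in wild type fenofibrate, 13.6, 13.8 and 18.2 in null control and 12.3, 12.8 and 20.2 in null fenofibrate. Every null library lay below every wild type library, and reads of the locus remained in the null, where a count over the whole locus cannot show which part is deleted. Ppara itself did not pass the test of the interaction, at -0.34 ± 0.26 (log2, SE), with a 95% interval of -0.88 to 0.19 and an adjusted p of 0.372. It was called when scaled to library totals (-1.12), and its value was -0.61 without null fenofibrate library 3 and -0.19 without null control library 3.

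The sequences below are shown because the direct repeat spaced by 1 base is the kind of element PPARA binds. They are the 250 bases before a RefSeq start of genes among the fixed or most extreme ones. Each promoter shown held its closest match there, with at most 2 mismatches. Each is written 5′ to 3′ on the strand of the gene (GRCm38.p6, the mm10 assembly), and capitals mark the match. Plin2 coats lipid droplets, Cd36 takes up fatty acids, Slc39a5 is a zinc transporter, and Saa1 and Saa2 encode acute phase serum amyloids. The windows are chr4:86670060-86670309 (minus strand), chr5:17835897-17836146 (minus), chr10:128400467-128400716 (minus), chr7:46742981-46743230 (minus) and chr7:46751583-46751832 (plus). A gene can have more than 1 RefSeq start, and the Cd36 and Slc39a5 windows lie inside the loci over which these genes were counted.
Plin2: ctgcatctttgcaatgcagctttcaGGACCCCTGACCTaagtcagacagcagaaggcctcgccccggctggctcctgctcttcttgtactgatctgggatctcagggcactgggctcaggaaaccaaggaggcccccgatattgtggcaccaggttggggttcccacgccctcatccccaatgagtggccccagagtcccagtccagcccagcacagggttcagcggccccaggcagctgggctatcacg
Cd36: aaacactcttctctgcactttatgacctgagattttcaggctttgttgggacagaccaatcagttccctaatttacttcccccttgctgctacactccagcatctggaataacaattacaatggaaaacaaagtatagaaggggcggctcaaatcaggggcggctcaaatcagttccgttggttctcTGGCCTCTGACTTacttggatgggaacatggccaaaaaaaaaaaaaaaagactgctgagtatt
Slc39a5: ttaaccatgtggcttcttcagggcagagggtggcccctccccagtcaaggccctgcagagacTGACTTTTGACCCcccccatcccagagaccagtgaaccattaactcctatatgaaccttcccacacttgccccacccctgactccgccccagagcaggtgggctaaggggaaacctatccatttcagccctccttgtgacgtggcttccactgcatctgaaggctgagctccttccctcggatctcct
Saa1: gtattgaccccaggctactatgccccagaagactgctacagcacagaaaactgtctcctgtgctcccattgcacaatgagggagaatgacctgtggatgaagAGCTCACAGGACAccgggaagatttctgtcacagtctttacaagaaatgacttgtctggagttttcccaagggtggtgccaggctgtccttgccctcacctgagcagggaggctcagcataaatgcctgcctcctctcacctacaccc
Saa2: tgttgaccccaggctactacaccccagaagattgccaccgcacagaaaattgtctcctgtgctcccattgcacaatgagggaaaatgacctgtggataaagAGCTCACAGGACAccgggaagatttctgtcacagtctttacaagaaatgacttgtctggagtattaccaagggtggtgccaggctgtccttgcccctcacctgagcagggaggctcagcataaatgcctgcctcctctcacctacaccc

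In Plin2, Cd36 and Slc39a5, whose interactions lay below 0, the match was on the strand opposite to the gene, at positions -225 to -213, -63 to -51 and -188 to -176 from the start. In Saa1 and Saa2, whose interactions lay above 0, it was on the strand of the gene, at -148 to -136 and -149 to -137, and the 13 bases were the same in both. Promoters were found for 10733 of 13934 gene identifiers tested, 13700 promoters of 300 bases (250 before to 50 after the start). The repeat of AGGTCA spaced by 1 base, searched on both strands with at most 1 mismatch, lay in 0.518% of all these promoters. It lay in 0.369% of promoters of genes called below 0 and in 0.888% of those called above 0. With at most 2 mismatches the shares were 3.23%, 3.75% and 3.81%. The same letters repeated with a spacing of 4 bases, as CAR and PXR can bind, lay with at most 2 mismatches in 2.29%, 2.09% and 2.60%. TGACNNNGC, the core of the antioxidant response element, lay in 14.1%, 14.3% and 14.1%. TTCNNNGAA, a STAT site, lay in 6.97%, 5.54% and 8.44%. These are letters in a window and not sites shown to be bound.

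Fenofibrate changed many genes in wild type liver and few in the null. In wild type 5253 genes (36.9% of those tested) passed an adjusted p of 0.05 in edgeR's quasi-likelihood test, 2748 up (19.3%) and 2505 down (17.6%). In the null 220 passed (1.54%), 142 up (0.997%) and 78 down (0.548%). The null count depended on single libraries: it was 55, 53 and 104 without null control library 1, 2 or 3, and 485 without null fenofibrate library 2. The interaction itself passed for 3178 genes (22.3%), 1523 above 0 (10.7%) and 1655 below 0 (11.6%). Of these 665 above 0 and 612 below 0 reached 2-fold. Under library totals, with no fold threshold, 266 genes were called above 0 and 7166 below, against 1523 and 1655 under TMM. Between the genotypes 1416 genes (9.94%) differed on control diet and 6687 (47.0%) on fenofibrate. List counts below are to be read beside the shares over all genes given here for the interaction and for each arm.

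Most interactions were a wild type response that did not pass the test in the null. Of the 1655 genes below 0, 1551 (93.7%) were called up in wild type and not called in the null. Their median response was 0.77 on the log2 scale in wild type and -0.05 in the null. Of the 1523 above 0, 1278 (83.9%) were called down in wild type and not in the null, with medians of -0.86 and 0.02. Neither arm was called for 80 genes below 0 and 143 above 0. The other patterns were small: 16 genes below 0 rose in both genotypes, 37 above 0 fell in both, 37 above 0 rose in the null alone, 25 fell in wild type and rose in the null, and 3 did the reverse. Among the 879 genes that rose at least 2-fold in wild type, the median null response was 0.14, and among the 724 that fell at least 2-fold it was -0.17. Of the 879, 576 (65.5%) were called in the interaction, and of the 724, 560 (77.3%), against 22.3% of all genes. By estimate alone, 113 of the 879 and 32 of the 724 changed at least 2-fold in the null, against 454 of all 14241 genes. The SD over all genes was 0.89 for the wild type response and 0.43 for the null response.

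**Figure D1:**
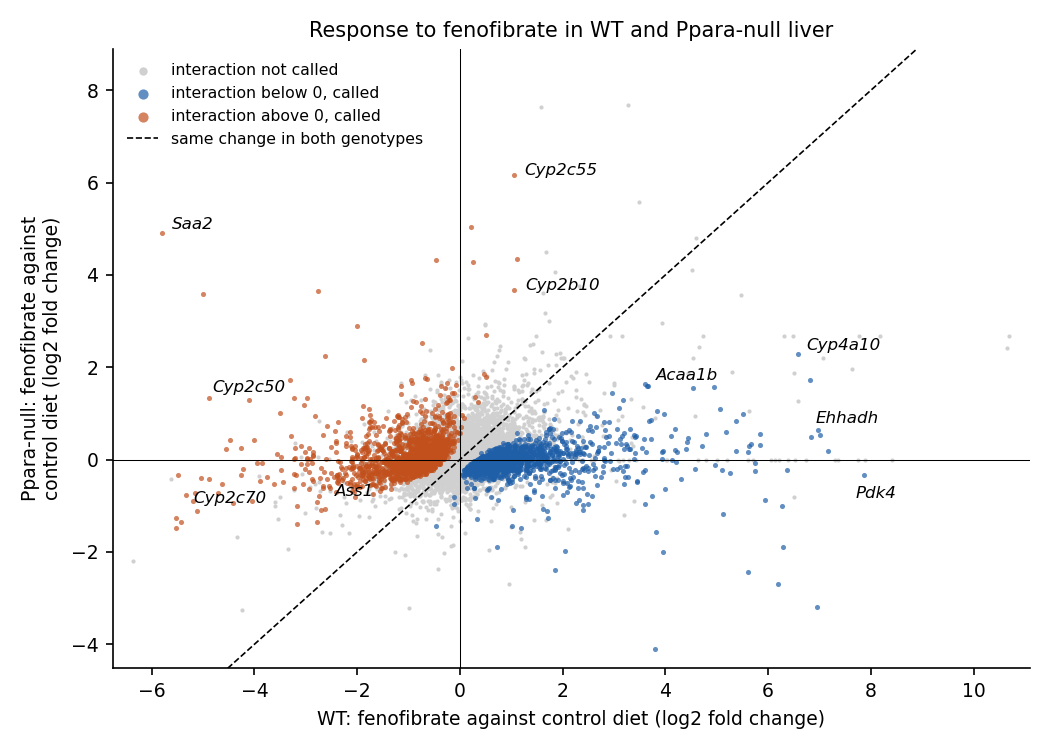
Response to fenofibrate in Ppara-null liver (vertical axis, log2 fold change) against the response in wild type liver (horizontal axis, log2 fold change) for the 14241 genes tested. Coloured points are the 1655 genes called below 0 and the 1523 called above 0 in the interaction. Most of them spread along the horizontal axis near a null response of 0, where the points on the 0 line include genes with no counts in any null library, while drug-metabolism genes such as Cyp2c55 stand high in the null.

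The genes furthest below 0 included enzymes of fatty acid oxidation and CoA turnover, and Pdk4. Pdk4, the kinase that shuts pyruvate out of the citric acid cycle in fasting (chr6:5483351-5496309, minus strand), measured 1.01, 0.883 and 0.95 CPM in wild type control and 205, 216 and 242 in wild type fenofibrate, against 2.83, 3.83 and 3.34 in null control and 2.22, 1.71 and 3.94 in null fenofibrate. The wild type groups were far apart and the null groups overlapped. Its interaction was -8.20 ± 0.36 (adjusted p = 1.87e-11), from a 233-fold rise in wild type. In its list, pyruvate and glucose handling, 7 of 19 genes were called above 0 and 3 below, against 10.7% and 11.6% of all genes. The median was 0.39 (-0.36 under library totals, with none above and 7 below).

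Peroxisomal oxidation shortens very long fatty acids, and of its 23 genes tested 16 were called below 0 and 2 above, with a median interaction of -1.98 against 0.03 for all genes. In the wild type arm 18 rose and 4 fell, and in the null arm 2 rose and 1 fell. Ehhadh, the bifunctional enzyme of the pathway (chr16:21761285-21787844, minus strand), measured 64.9, 78.2 and 78.8 CPM in wild type control and 8344, 8608 and 8386 with fenofibrate. In the null it measured 44.9, 50.2 and 55.7 on control diet and 64, 61.7 and 85.5 with fenofibrate. The null groups did not overlap, and the response was 0.49 ± 0.12 in the null (adjusted p = 0.0503) against 6.83 ± 0.15 in wild type. The interaction of Ehhadh was -6.35 ± 0.18 (adjusted p = 1.08e-13). Crat, which moves short acyl groups between CoA and carnitine, had an interaction of -3.61 ± 0.22. Of 16 genes of peroxisome assembly 8 were called below 0 and none above (median -0.57). Pex11a, which drives peroxisome division, measured 31.1 ± 0.612 and 197 ± 11.1 CPM in wild type control and fenofibrate and 13.3 ± 0.586 and 14.8 ± 1.17 in the null (mean ± SD, n = 3; interaction -2.51). Pex19, a chaperone of peroxisomal membrane proteins, had an interaction of -1.55.

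Acaa1b, a peroxisomal thiolase, also rose in the null (chr9:119148023-119157093, minus strand). It measured 391, 419 and 439.5 CPM in wild type control and 5361, 5042 and 5374 with fenofibrate. In the null it measured 128, 150.3 and 133 on control diet and 367, 432 and 437 with fenofibrate, a 3.001-fold rise (adjusted p = 3.00e-08). Neither pair of groups overlapped. Its interaction was -2.07 ± 0.14 (adjusted p = 4.03e-09). Acaa1b has a close paralog whose locus held no counts, and it overlaps Dlec1, so the assignment of its reads is uncertain.

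Mitochondrial beta-oxidation had 16 of 19 genes below 0 and none above, with a median of -1.37. In wild type 17 rose and none fell, and in the null no member was called. Hadhb, the thiolase subunit of the trifunctional protein, measured 116, 112 and 117 CPM in wild type control, 442, 414 and 434 in wild type fenofibrate, 73.8, 76.7 and 79.3 in null control and 70.2, 72.8 and 62.1 in null fenofibrate. The 3 wild type fenofibrate libraries stood above the other 9. Its interaction was -2.07 ± 0.10 (adjusted p = 7.88e-11). Acadm, the medium-chain dehydrogenase, was at -1.97. Aldh3a2, a fatty aldehyde dehydrogenase outside this list, stood at -2.91. It rose in wild type (3.42) and, by less, in the null (0.515, adjusted p = 0.0165). The carnitine palmitoyltransferases, which admit fatty acids to mitochondria, are given side by side. Cpt1a, the liver form, had 134 to 158 CPM in wild type control and 185 to 255 with fenofibrate, with an interaction of -0.79 ± 0.16. Cpt1b, the muscle form, had 6.98 to 7.43 and 92.2 to 96.5 CPM, and an interaction of -3.27 ± 0.16. Their 95% intervals were -1.12 to -0.45 and -3.62 to -2.93. Cpt1b overlaps Chkb and another locus. Slc22a5, which imports carnitine, rose 9.16-fold in wild type and 1.49-fold in the null (adjusted p = 0.0436), with an interaction of -2.63.

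Of 6 genes of ketone body metabolism tested, 5 were called below 0 and none above (median -1.07). Slc16a1, a transporter of ketone bodies and lactate, stood at -2.16.

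Omega-oxidation starts at the far end of the fatty acid chain, and 7 of its 11 genes were called below 0 and 3 above, with a median of -1.37. In the wild type arm 8 rose and 3 fell, and in the null arm 3 rose and 1 fell. Cyp4a10, a fatty acid hydroxylase (chr4:115518264-115533649, plus strand), measured 57.9, 98.2 and 104 CPM in wild type control and 8565, 7936 and 8334 with fenofibrate, against 1.7, 0.853 and 0.443 in null control and 1.97, 5.71 and 7.12 in null fenofibrate. It therefore started lower in the null, where it also rose (2.29 ± 0.40, adjusted p = 0.0078). The interaction was -4.29 ± 0.54 (adjusted p = 1.28e-05). Cyp4a31 rose in both genotypes as well (6.81 in wild type and 1.72 in the null), and Cyp4a14 was called in wild type (7.0) and not in the null (0.54, at 0.13 to 0.295 CPM). The Cyp4a genes are near-identical neighbours, so counts may be split among them. Not every hydroxylase went this way. Cyp4f14 acts on leukotrienes and vitamin K chains. It measured 85.9, 94.4 and 101 CPM in wild type control and 6.88, 6.38 and 9.74 with fenofibrate. In the null it measured 137, 140.0 and 135 on control diet and 93.2, 104 and 88.3 with fenofibrate. It fell in both genotypes (log2 changes of -3.61 in wild type and -0.53 in the null), and its interaction of 3.08 ± 0.18 marks the smaller fall in the null.

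The acyl-CoA thioesterases release free fatty acids from CoA, and with other genes of CoA turnover 9 of 14 were called below 0 and 1 above (median -0.55). Acot2, a mitochondrial member, measured 6.4, 5.24 and 3.98 CPM in wild type control and 330.5, 334 and 622 with fenofibrate, and in the null 6.45, 5.91 and 8.55 on control diet and 4.01, 5.42 and 8.46 with fenofibrate. Its wild type fenofibrate values spread widely but none came near any other group. The interactions were -6.58 ± 0.39 for Acot2, -5.30 ± 0.22 for Acot1, -5.08 ± 0.23 for Acot3, -3.45 ± 0.14 for Acot4 and -7.28 ± 1.17 for Acot5. Acot5 varied most, from 16.1 to 100.5 CPM in wild type fenofibrate. The Acot genes form a cluster of paralogs on chromosome 12, and their split is uncertain. Vnn1, a pantetheinase of CoA breakdown, measured 4.22 to 6.78 CPM in wild type control and 159 to 189.6 with fenofibrate. It measured 0.0719 to 0.113 and 0.119 to 0.396 in the null (interaction -3.38 ± 0.55).

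Lipid droplet and fatty acid uptake genes had 18 of 22 members below 0, none above and a median of -1.69. Plin2, whose promoter is printed above, measured 94.2, 90.01 and 95.4 CPM in wild type control, 878, 763 and 881 in wild type fenofibrate, 43.8, 52.7 and 46 in null control and 37, 47.7 and 34.7 in null fenofibrate. The null groups overlapped and both lay below wild type control. Its interaction was -3.43 ± 0.20 (adjusted p = 8.83e-10). Cd36 measured 8.25, 8.79 and 9.76 CPM in wild type control, 199.8, 203 and 181 in wild type fenofibrate, 5.82, 3.01 and 4.55 in null control and 6.41, 6.79 and 5.26 in null fenofibrate, with an interaction of -3.98 ± 0.30. Slc27a1, a fatty acid transporter known from muscle and fat, stood at -5.53 ± 0.22. Cidec, which fuses lipid droplets, stood at -5.44 ± 0.33, and Mgll, the monoglyceride lipase, at -2.76 ± 0.12. Lpl, the lipoprotein lipase, rose 6.14-fold in wild type and 2.02-fold in the null (adjusted p = 0.04; interaction -1.61). Outside the lists, Slc39a5 measured 0.149 to 0.349 CPM in wild type control, 11 to 12.4 in wild type fenofibrate, 0 to 0.0411 in null control and 0.00867 to 0.0217 in null fenofibrate. Its null libraries held so few reads that the interaction had a wide interval, -8.52 to -3.49, and its call was lost without null control library 2 (-5.06). Spon2, a secreted matrix protein, was at -5.53 and Lamb3, a laminin chain whose locus overlaps G0s2 and Hsd11b1, at -5.33. The G0s2 locus held no counts, so the assignment of the Lamb3 reads is uncertain.

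**Figure D2:**
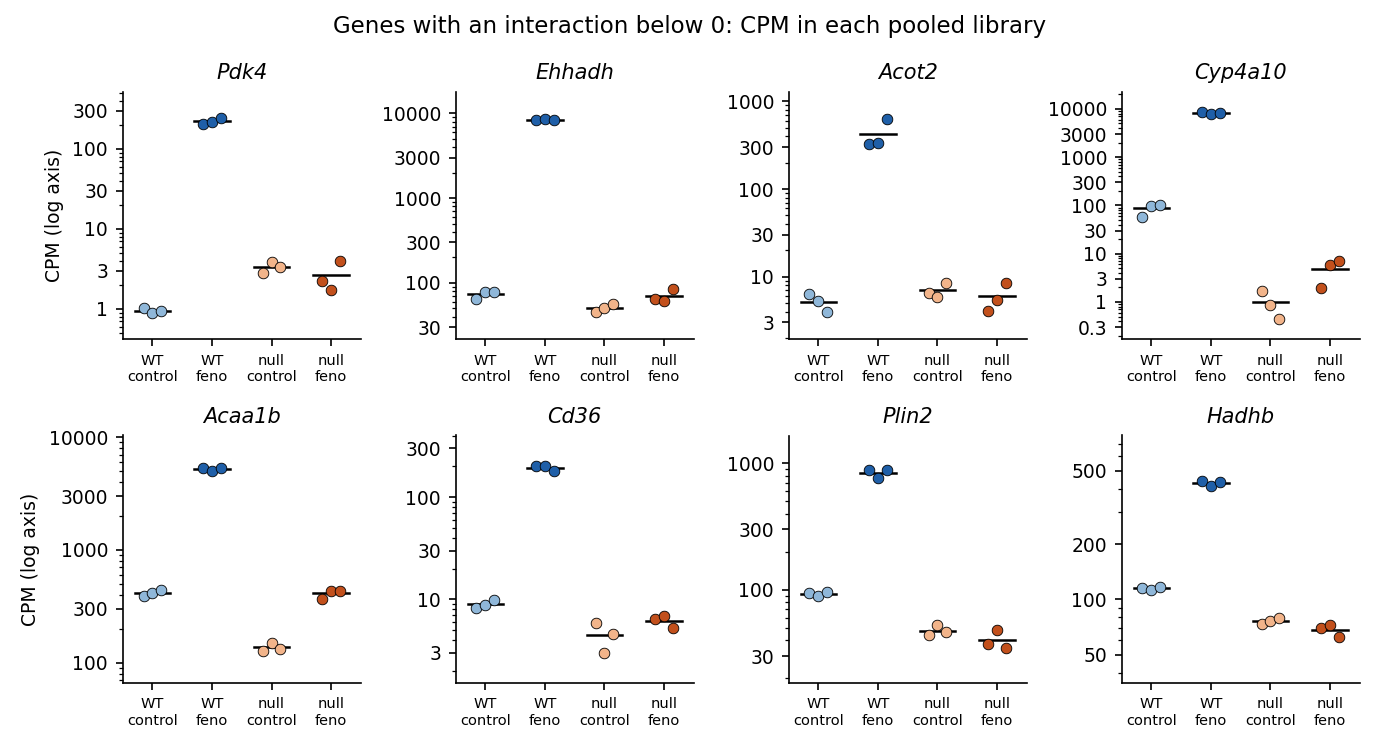
CPM (log axis) in each of the 12 libraries for genes called below 0, by group, each point a pool of livers and each line a group mean. The wild type fenofibrate libraries stand above the other 9 in these genes, as for Pdk4 (205 to 242 against 0.883 to 1.01 in wild type control), while Acaa1b and Cyp4a10 also rise in the null.

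Some genes could not be read in the null. A total of 25 genes tested had no counts in any null library, 23 of them called up in wild type, and none of the 25 was called in the interaction. The prior count of the fit sets their null response at about 0, so their interaction values do not come from null reads. Fgf21, a fasting hormone of the liver, is close to this case. It measured 0.761, 0.719 and 1.05 CPM in wild type control and 2.13, 3.76 and 2.07 with fenofibrate. In null control it was at 0 in all 3 libraries, and in null fenofibrate it was detected in library 2 alone, at 0.0305 CPM. The rise in wild type was called (1.65 ± 0.27, adjusted p = 2.37e-04), and its interaction is not interpretable. Angptl4, an inhibitor of lipoprotein lipase known as a PPARA target, measured 64.6 ± 6.66 and 80.6 ± 3.46 CPM in wild type control and fenofibrate and 37.4 ± 6.46 and 39.6 ± 6.01 in the null. Its interaction did not pass (-0.24 ± 0.18, interval -0.62 to 0.14, adjusted p = 0.386), but was called under library totals (-1.00).

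Lipogenesis genes, which build fatty acids, were mixed. Of 22, 9 were called below 0 and 3 above, against 11.6% and 10.7% of all genes (median -0.60), and 14 rose in wild type. Me1, malic enzyme, rose in both genotypes, 6.36-fold in wild type and 1.92-fold in the null (interaction -1.73 ± 0.22). Acacb, which makes the malonyl-CoA that restrains Cpt1, started higher in the null (26.1 to 44.3 CPM) than in wild type (8.46 to 12.7), and had an interaction of -2.53 ± 0.29. Elovl5, a fatty acid elongase, stood at -2.03. Thrsp, a thyroid hormone responsive regulator of lipogenesis, moved the other way: it measured 208, 164 and 156 CPM in wild type control, 29.1, 17 and 26.9 in wild type fenofibrate, 180.3, 152 and 151 in null control and 216, 186 and 143 in null fenofibrate. The null groups overlapped while wild type fell, and the interaction was 3.03 ± 0.26 (adjusted p = 7.91e-08). Scd1, the stearoyl-CoA desaturase, measured 276 to 362 CPM in wild type control and 1438 to 1815 with fenofibrate, while null fenofibrate ranged over 148 to 596, and the interaction did not pass (-1.21 ± 0.49, adjusted p = 0.0858). Without null fenofibrate library 3 it was called, at -2.03. Fasn (-0.70 ± 0.37) and Srebf1 (-0.31 ± 0.28) did not pass either, but Scd1 (-1.97), Fasn (-1.49) and Srebf1 (-1.10) were all called under library totals. Of cholesterol synthesis genes 2 of 23 were called above 0 and 1 below, against 10.7% and 11.6% of all genes (median 0.14, -0.68 under library totals and -0.14 without null fenofibrate library 1).

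Among proliferation and stress genes, 10 of 33 cell cycle genes were below 0 and 4 above, against 11.6% and 10.7% of all genes. Their median was 0.05 (-0.69 under library totals, and -0.02 with 2 above without null fenofibrate library 1). The genes named next all lie below 0, and the cell cycle genes called above 0 are not named here. E2f8, a repressor of the cell cycle in liver, rose in both genotypes, with 1.22 to 1.46 CPM in wild type control, 5.51 to 6.61 in wild type fenofibrate, 0.275 to 0.309 in null control and 0.442 to 0.596 in null fenofibrate (interaction -1.34). Gadd45b, a stress sensor, also rose in both (4.54 and 1.56, interaction -2.98), while Cdkn1a, a cell cycle inhibitor, was called in wild type (2.49) and not in the null (-0.18; interaction -2.67). Ucp2, a mitochondrial carrier, measured 7.96 to 9.29 and 81.4 to 82.4 CPM in wild type and 7.996 to 9.79 and 10 to 11.2 in the null (interaction -2.96). NRF2 targets had 4 of 16 genes below 0 and 3 above, against 11.6% and 10.7% of all genes. Among them Srxn1, which repairs peroxiredoxins, stood at -1.2.

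Many of the named genes above 0 encode enzymes and secreted proteins of hepatocytes, and fell in wild type. Cyp2c70, which makes muricholic bile acids in mice (chr19:40153353-40187333, minus strand), measured 218, 179 and 194 CPM in wild type control and 6.69, 7.24 and 4.08 with fenofibrate, against 197, 195 and 204 in null control and 178, 160.0 and 112 in null fenofibrate. The interaction was 4.63 ± 0.28 (adjusted p = 1.15e-09). Bile acid synthesis and transport had 13 of 22 genes above 0 and 2 below, with a median of 0.75 that moved to -0.04 under library totals. Slco1a4, an uptake transporter, measured 19.6 to 24.9 CPM in wild type control, 2.29 to 2.61 in wild type fenofibrate, 69.8 to 81.2 in null control and 60.7 to 94 in null fenofibrate (interaction 3.26 ± 0.20). Akr1d1, a reductase of bile acid synthesis, stood at 2.91. Cyp7b1 (1.35) and Cyp27a1 (1.14), of the alternative pathway, were called, but not under library totals. Cyp8b1, which sets the share of cholic acid, was called below 0 (-0.64 ± 0.20, adjusted p = 0.0244), a call lost without wild type control library 3 (-0.56), null control library 3 (-0.54) or null fenofibrate library 3 (-0.53). Cyp7a1, the rate-limiting enzyme, was not called (0.80 ± 0.54, adjusted p = 0.323): its null fenofibrate libraries measured 104, 28.9 and 29.7 CPM, and without library 1 its interaction was -0.09.

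Hsd3b5, a male-biased steroid dehydrogenase, measured 70.1, 63.5 and 65.8 CPM in wild type control and 2.16, 0.283 and 2.47 with fenofibrate, against 80.4, 61.8 and 59 in null control and 39.5, 46.6 and 32.7 in null fenofibrate (interaction 4.56 ± 0.52). The male-biased list had 8 of 14 genes above 0 and 2 below (median 0.71, and -0.05 under library totals). A positive median was not particular to it: the female-biased list had a median of 0.84 (0.14 under library totals). Of its 13 genes 1 was called above 0 and 1 below. Amino acid and urea cycle genes had 17 of 26 above 0 and none below, and their median was 0.65 (-0.13 when scaled to library totals). Ass1, which joins citrulline and aspartate in the urea cycle, measured 2550.0, 2621 and 2293 CPM in wild type control, 619, 614 and 499.5 in wild type fenofibrate, 2208, 2424 and 2478 in null control and 2219, 1983 and 2637 in null fenofibrate. The 3 wild type fenofibrate libraries stood below the other 9, and the interaction was 2.05 ± 0.16 (adjusted p = 4.25e-08). Asl, the next enzyme of the cycle, stood at 1.75 and Gls2, the liver glutaminase, at 2.36. Of genes known from the periportal zone 9 of 10 were above 0 (median 1.13, and 0.35 under library totals), among them Cyp2f2 (1.16). Of pericentral genes 4 of 9 were above 0 (median 0.71, -0.05 under library totals and 0.42 without null fenofibrate library 1), among them Cyp1a2 (2.77). Circadian genes had 6 of 12 above 0 and 1 below (median 0.75, and -0.03 under library totals), with Cry1 at 1.42 and Dbp at 0.98. The labels do not state the hour at which livers were taken. The calls of Cyp2f2, Cry1 and Dbp were lost under library totals. Among 17 lipoprotein genes 4 were above 0 and 2 below, against 10.7% and 11.6% of all genes (median 0.23, and -0.54 under library totals). Apoc3, which slows clearance of triglyceride, fell in wild type (-1.33) and had an interaction of 1.10 ± 0.19, called under TMM but not under library totals. Mttp and Pltp, which load and remodel lipoproteins, were below 0 (-1.58 and -1.84). Apoa1, the main HDL protein, fell in both genotypes (-0.84 and -0.59), and the interaction did not pass (0.25 ± 0.18, interval -0.12 to 0.62).

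Among markers of other cells, those of Kupffer cells moved with these falls. Of 11 Kupffer cell markers 9 were above 0 (median 0.75), among them Clec4f (0.93) and Timd4 (1.14), and none was called under library totals (median -0.03). Their summed level was 80.9 to 88.8 CPM in wild type control, 46.6 to 59.2 in wild type fenofibrate, 95.4 to 107 in null control and 87.8 to 130.0 in null fenofibrate. Hepatocyte markers, which include Alb and Ttr, summed to 55000 to 57400 CPM in wild type control, 21700 to 22500 in wild type fenofibrate, 56300 to 66400 in null control and 41600 to 49500 in null fenofibrate, and 5 of 7 were above 0. In these bulk samples fewer cells of a type and less RNA per cell cannot be told apart, and their part in the other changes was not tested. Called above 0 were 1 of 7 stellate, 1 of 9 endothelial, 1 of 5 cholangiocyte and 0 of 3 erythroid markers, against 10.7% of all genes, and none was called below 0.

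Acute phase and complement genes, which the liver secretes into blood, had 20 of 26 members above 0 and none below, with a median of 1.59 (0.79 under library totals, and 1.19 without null fenofibrate library 1). In wild type 19 fell and none rose. Much of the list was a steady wild type fall: C8a, a subunit of the complement pore, measured 248, 247 and 253 CPM in wild type control, 47.1, 52.8 and 62.4 in wild type fenofibrate, 327, 331 and 318 in null control and 229, 229 and 226 in null fenofibrate (interaction 1.69 ± 0.15). It fell in the null too, by less (-0.51 against -2.20). C8b (1.94) and C9 (1.95) of the same pore and the clotting factor F11 (1.93) were also above 0, and Itih4, a plasma inhibitor chain, stood at 2.16. Trf, plasma transferrin, stood at 1.49. C9, F11 and Trf were called down in the null too (-0.80, -0.44 and -0.45), by less than in wild type (-2.75, -2.37 and -1.94). C8b and Itih4 were not called in the null.

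The serum amyloids and other inflammatory genes rested in part on 1 library. Saa1 measured 89.4, 20.4 and 44.6 CPM in wild type control, 1.63, 2.54 and 0.682 in wild type fenofibrate, 22.6, 17.6 and 13.2 in null control and 624, 12.9 and 10.9 in null fenofibrate. Null fenofibrate library 1 was far above its companions, which lay below every null control library. The interaction of 8.6 ± 1.61 (adjusted p = 7.33e-04) fell to 4.42 without that library and was still called. Saa2 went from 10.71 to 5.52 and Saa3 from 6.42 to 3.22, both still called. Lcn2, a siderophore-binding protein, measured 101, 2.24 and 1.8 CPM in null fenofibrate and 1.58 to 2.1 in null control, and its interaction of 4.03 became -0.08, no longer called. Its call was also lost with only the 12 libraries, with a replicate block and without any 1 of 8 other libraries. Icam1, an adhesion molecule, went from 2.11 to 0.85, still called, but its call was lost without wild type fenofibrate library 3 (2.03). S100a8, a myeloid protein, measured 2.95, 0.731 and 0.963 CPM in null fenofibrate and 0.0514 to 0.101 in null control, and its interaction of 4.79 became 3.93. Orm2, orosomucoid, varied within every group and did not pass (1.74 ± 0.98, adjusted p = 0.228). Infiltrating myeloid markers summed to 9.69 to 17.6 CPM in null fenofibrate and 9.84 to 10.5 in null control. Of these 7 markers 2 were called above 0, against 10.7% of all genes. Their part in these values was not tested.

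**Figure D3:**
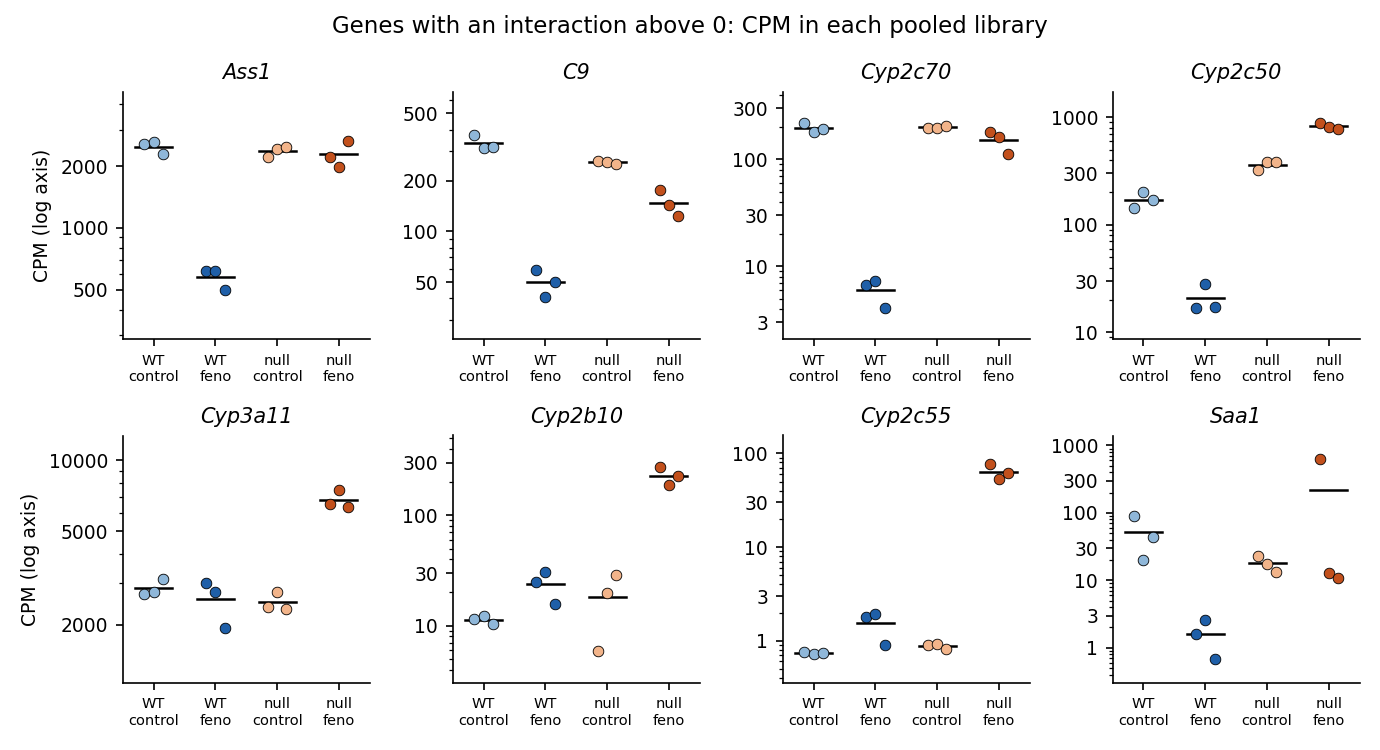
CPM (log axis) in each of the 12 libraries for genes called above 0, by group, each point a pool of livers. Horizontal lines are group means. In Cyp2c70, Ass1 and C9 the wild type fenofibrate libraries lie below the rest, in Cyp2c55 and Cyp3a11 the null fenofibrate libraries lie above it, and in Saa1 null fenofibrate library 1, at 624 CPM, stands apart from the other 2.

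A second set above 0 was a rise in the null. CAR and PXR drug metabolism had 17 of 32 genes above 0 and 2 below, with a median of 1.28 (0.54 under library totals, with 12 above and 6 below). In the null 17 members rose and none fell (median 1.04), against 142 (0.997%) of all genes that rose. In wild type 9 rose and 10 fell, against 19.3% and 17.6% of all genes. Cyp2c55, an inducible P450 (chr19:39006938-39042693, plus strand), measured 0.761, 0.719 and 0.742 CPM in wild type control and 1.81, 1.92 and 0.909 with fenofibrate, and 0.898, 0.925 and 0.824 in null control against 76.8, 53 and 61.6 in null fenofibrate. It rose 72.2-fold in the null and 2.08-fold in wild type, and the interaction was 5.12 ± 0.31 (adjusted p = 1.38e-09). Cyp2b10, the classical target of CAR (chr7:25897620-25926624, plus strand), measured 11.5, 12.2 and 10.4 CPM in wild type control and 25, 30.6 and 15.7 with fenofibrate, against 5.89, 19.7 and 28.6 in null control and 273, 190.1 and 225 in null fenofibrate. All null fenofibrate libraries lay above the other 9 despite the spread of null control, and the interaction was 2.60 ± 0.51 (adjusted p = 9.94e-04). Cyp3a11, the classical target of PXR (chr5:145854426-145879964, minus strand), measured 2715, 2758 and 3131 CPM in wild type control and 3005, 2753 and 1942 with fenofibrate, a difference that was not called. It measured 2377, 2765 and 2336 in null control and 6510.0, 7460.0 and 6344 in null fenofibrate. Its interaction was 1.6 ± 0.22 (adjusted p = 2.80e-05). Gstm3, a glutathione transferase, rose in the null alone by the test (2.70 ± 0.29; wild type 0.51 ± 0.27; interaction 2.19). Cyp2c29 rose in both genotypes (0.47 and 1.85, interaction 1.38, not called under library totals), and with Cyp2c55 and Cyp2b10 it made up the 3 genes above 0 that rose in both.

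The 25 genes that fell in wild type and rose in the null included other Cyp2c enzymes. Cyp2c54 measured 75.9, 112 and 102 CPM in wild type control, 7.32, 11.3 and 6.83 in wild type fenofibrate, 235, 298 and 286 in null control and 553, 591 and 508 in null fenofibrate. No 2 of these groups overlapped. The interaction was 4.52 ± 0.27 (adjusted p = 9.84e-10), with arms of -3.51 and 1.01. Cyp2c37 had arms of -2.98 and 1.34 (interaction 4.33 ± 0.26) and Cyp2c50 of -3.04 and 1.19 (interaction 4.23 ± 0.24). These neighbours on chromosome 19 are close paralogs. Ces2a, a carboxylesterase that can split ester drugs, measured 239, 245 and 267 CPM in wild type control and 144, 123 and 120.4 with fenofibrate, against 199, 252 and 208 in null control and 458, 489.8 and 509.7 in null fenofibrate (interaction 2.10 ± 0.14). Gstm1 had arms of -0.43 and 1.19. Interferon-related genes were also among them: Irf7, a regulator of interferon genes, had arms of -1.72 and 0.86, and Gbp10, a guanylate-binding protein, of -1.43 and 0.91. Apol9a (4.91) and Apol9b (4.79), paralogs of the apolipoprotein L family, fell in wild type and were not called in the null.

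**Figure D4:**
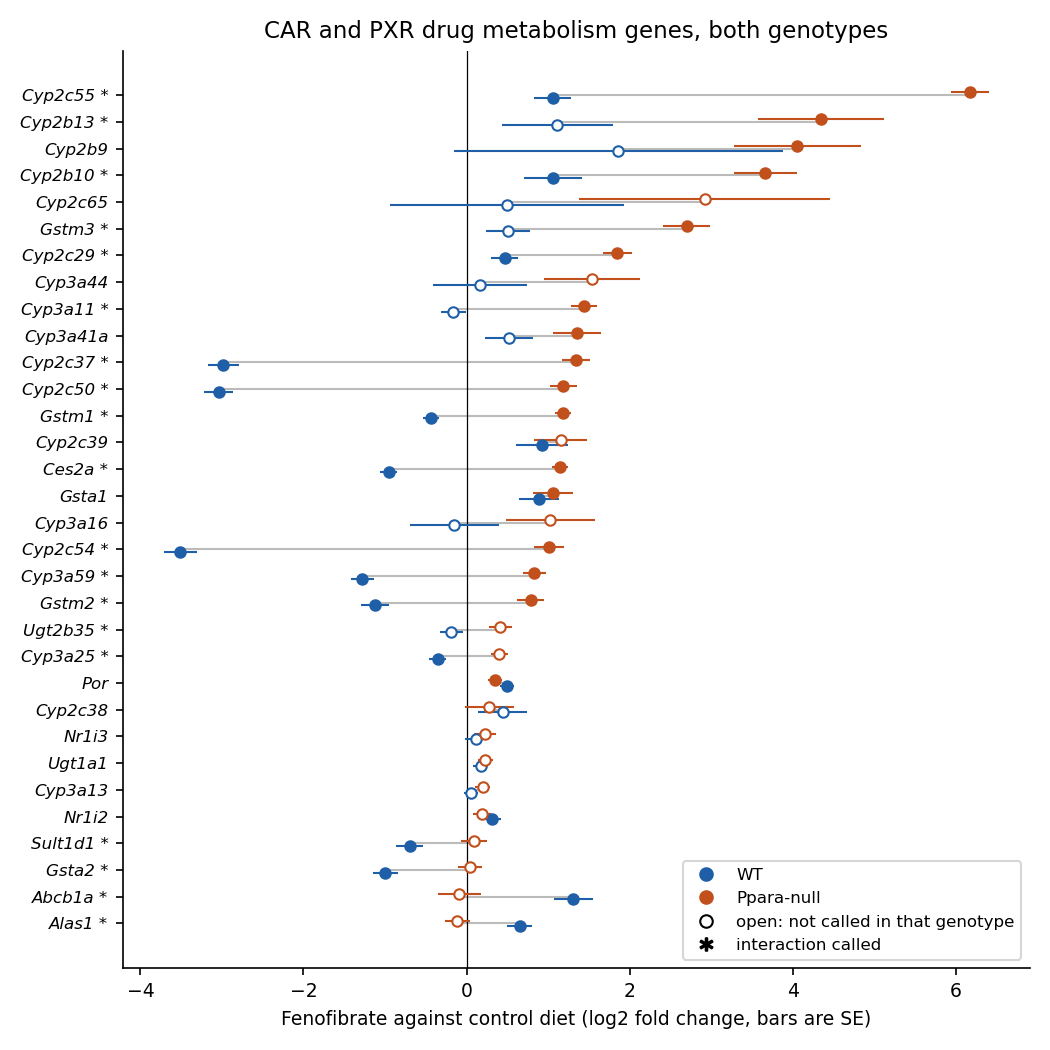
Log2 fold change with fenofibrate in wild type and in Ppara-null liver for the 32 CAR and PXR drug metabolism genes tested, with bars of 1 SE and open points where a change was not called. In the null 17 rise and none falls, and in wild type 9 rise and 10 fall. Cyp2c55 reaches 6.17 in the null.

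The reverse was rare. Ephx2, the soluble epoxide hydrolase (chr14:66084372-66124522, minus strand), measured 430.3, 465 and 477 CPM in wild type control and 1287, 1202 and 1272 with fenofibrate, and 274, 313 and 268 in null control and 187, 229.6 and 229 in null fenofibrate. It rose in wild type and fell in the null (-0.41 ± 0.09, adjusted p = 0.0349), with an interaction of -1.86 ± 0.13. The other 2 such genes were Cadm1, a cell adhesion protein (0.68 and -0.35), and Vac14, a scaffold of phosphoinositide metabolism (0.36 and -0.37). The null fall alone was called for 5 genes: Aqp4, Mthfd1l, Plekhb2, Isoc2b and Slc45a3. Aqp4, a water channel, differed most at the start, at 7.85, 9.85 and 7.58 CPM in null control and 0.0464, 0.216 and 0.058 in wild type control, and measured 4.09, 4.02 and 5.7 in null fenofibrate (interaction -1.62 ± 0.49). Isoc2b had an interaction of -0.84 and Mthfd1l, a mitochondrial folate enzyme, of -1.12. The calls of Aqp4, Plekhb2 (-0.95) and Slc45a3 (-0.69) were each lost when 1 of several libraries was left out, with Aqp4 at -1.22 without wild type control library 1, -1.36 without wild type control library 3, -1.54 without wild type fenofibrate library 2 and -1.57 without wild type fenofibrate library 3. Hist1h2bb, a histone gene, was low in null control: it measured 0.156, 0.247 and 0.144 CPM in null control against 6.62, 7.4 and 4.03 in null fenofibrate, 5.16, 3.72 and 5.34 in wild type control and 5.05, 5.33 and 6.26 in wild type fenofibrate. The 3 null control libraries were low and the other 9 overlapped (interaction 4.81 ± 1.29), and near-identical histone copies make its count uncertain.

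A few genes responded in both genotypes with no call in the interaction: 65 in all, 38 up and 27 down. Gstm4, a glutathione transferase, measured 40.6, 50.4 and 40.9 CPM in wild type control and 116, 102 and 102 with fenofibrate, against 23, 16.9 and 19.3 in null control and 82.2, 62.3 and 71.3 in null fenofibrate. Fenofibrate raised it in both (1.28 and 1.86), and the interval of its interaction was 0.14 to 1.03. Csad, an enzyme of taurine synthesis, rose by 1.05 and 1.59 (interval 0.02 to 1.05), Gstt3 by 0.68 and 1.28 (interval from just under 0 to 1.2) and Gsta1 by 0.89 and 1.06 (interval -0.56 to 0.90). Neat1, a nuclear long noncoding RNA, rose by 3.01 and 1.66 (interval -2.45 to -0.25). Apoa5, a regulator of plasma triglyceride, fell in both (-0.99 and -0.56, interval 0.04 to 0.81). The interaction of Gstm4 was called with DESeq2 (0.58), with only the 12 libraries (0.58), without null control library 1 (0.71) and without null fenofibrate library 2 (0.65). That of Neat1 was called under library totals (-2.13), with no filter (-1.38) and without wild type fenofibrate library 1 (-1.62) or 3 (-1.55), and was -0.70 without wild type fenofibrate library 2. These intervals leave room for sizeable differences, so a missing call does not show that the genotypes respond alike.

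**Figure D5:**
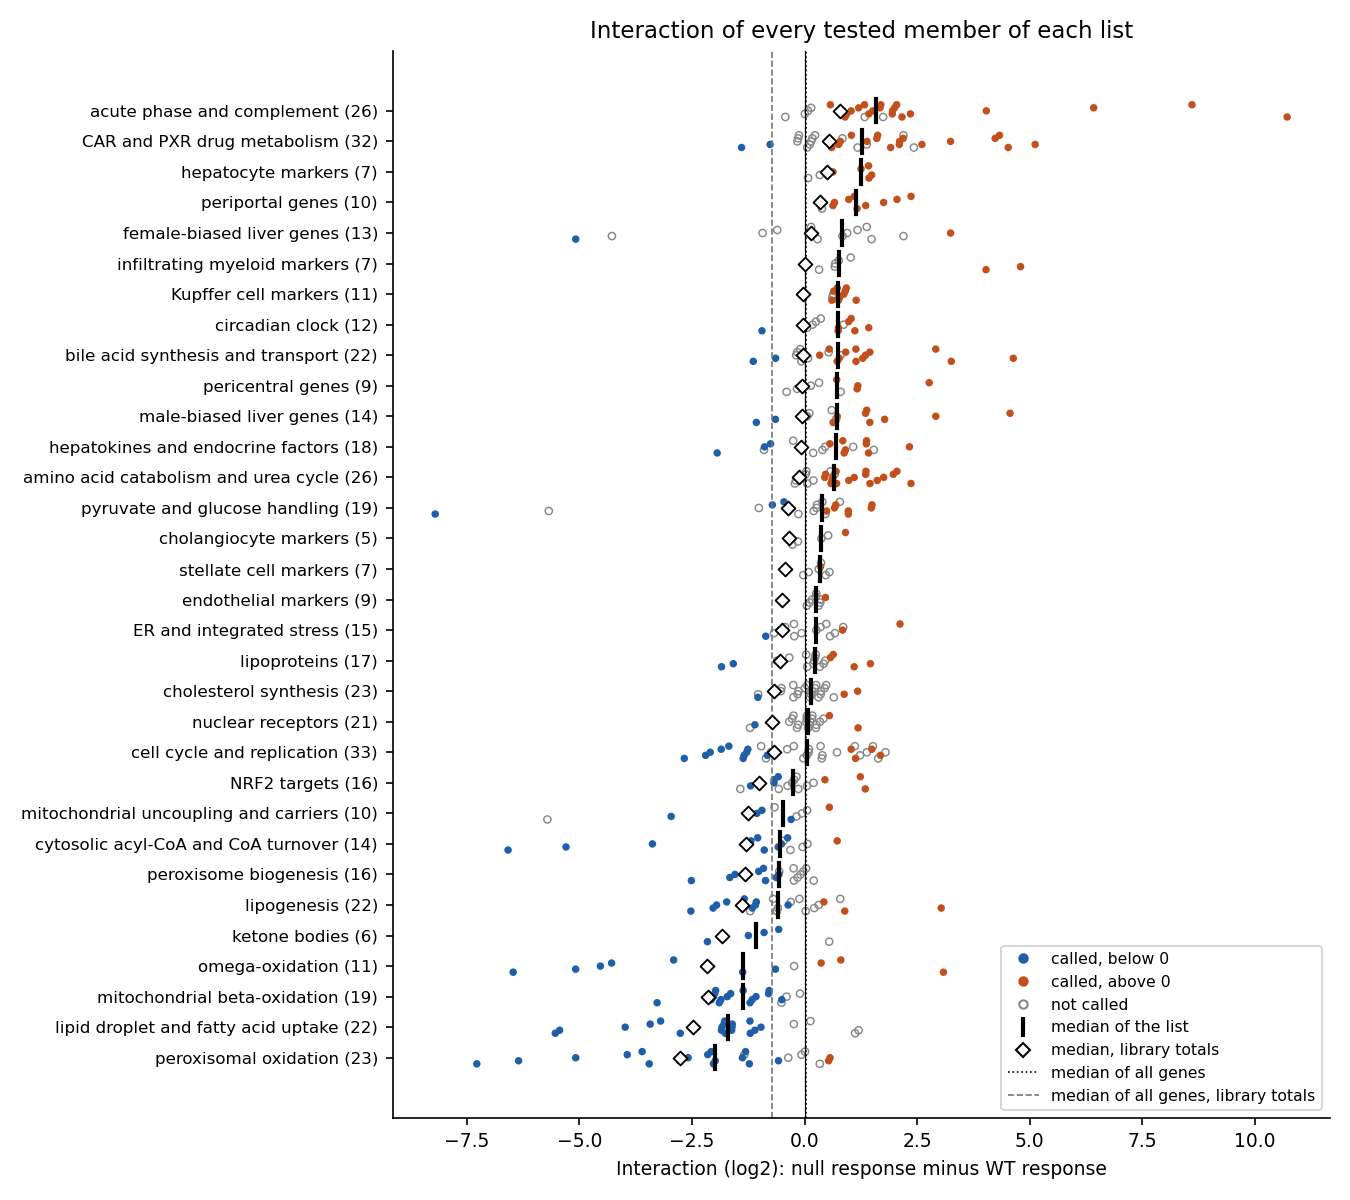
Interaction (log2, horizontal axis) of each tested member of the lists with at least 5 genes tested, with the list median under TMM (bar) and under library totals (diamond) and the medians of all 14241 genes (0.03 and -0.73, vertical lines). Peroxisomal oxidation (-1.98), lipid droplet and uptake genes (-1.69), mitochondrial beta-oxidation (-1.37) and omega-oxidation (-1.37) lie furthest below 0 under TMM. Under library totals, bile acid, amino acid, circadian and Kupffer medians cross to just below 0. That scaling moves the median gene down, so it is no check on lists that lie below 0 under TMM.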

How the data were processed

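Liver RNA of 12 libraries (3 in each of 4 groups, out of 18) was compared by gene. Per the file headers, the deposited tables give raw read counts by gene locus, and the authors' counts were used unchanged. Per the submitters' processing notes, the tools were Picard 1.84, TopHat2 2.0.8, Trimmomatic 0.30 and bcl2fastq 2.17, and the build mm10. No source used here names the counting tool or its strand setting, so reads of overlapping loci and close paralogs may be split or lost. Of loci with an identifier 11422 had 0 counts in every library, mostly loci inside another locus, and were taken as not measured, Acaa1a, G0s2 and Nqo1 among them. In 6 files, 12 rows with no gene (blank or a sum) were dropped, 5 read columns of no sample were not used, and 29 symbols altered by a spreadsheet were repaired.

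Counts were fitted with edgeR 4.0.16 (R 4.3.3, limma 3.58.1) after filterByExpr over 6 groups and TMM scaling. The 18 libraries of the series shared 1 quasi-likelihood fit with 1 coefficient for each group and no replicate term, leaving 12 residual degrees of freedom. The F-test was adjusted by Benjamini-Hochberg over 14241 genes, with a threshold of 0.05. Every adjusted p is from this fit. Log2 fold changes are fitted with a prior count of 0.125, their SE is the change over the square root of F, and intervals are at 95%. The scripts were tested on simulated data, where the interaction test recovered 13.7% of 1.5-fold, 51.3% of 2-fold and 85.8% of 4-fold changes. Small differences were thus often missed there. Nothing in the labels says that replicate numbers pair the pools.

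The 36 gene lists and the members named were chosen with earlier results of these data known, and lists are described by counts and medians alone. Genes were named from those called at 5 CPM or more in the highest group, leaving out predicted models: the 12 lowest and 12 highest interactions, 5 per response pattern, up to 4 per list, 8 shared responses and a fixed set, of which the text gives a part and some are not reported here. Alternatives were DESeq2 1.42.0, other scalings and filters, a fold threshold, the 12 libraries alone, a replicate block and leaving out each library. Promoters are from RefSeq.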

Additional observations from a re-analysis of the deposited data

Results flagged for a closer look

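The response to fenofibrate differed between the genotypes, by the test of the difference itself (edgeR's interaction, adjusted p below the threshold), for 95 of the 110 genes named. Many of these were named for their interaction, so this share follows largely from the choice. Of all genes tested 22.3% were called. Values are the null response minus the wild type response on the log2 scale, and 50 of the 95 lie below 0 and 45 above. The lowest were those of Pdk4 (-8.20), Acot5 (-7.28), Acot2 (-6.58), Cyp4a14 (-6.47), Ehhadh (-6.35), Slc39a5 (-6.01), Slc27a1 (-5.53), Spon2 (-5.53), Cidec (-5.44), Lamb3 (-5.33), Acot1 (-5.30), Cyp4a31 (-5.08) and Acot3 (-5.08). Less low were Cyp4a10 (-4.29), Cd36 (-3.98), Crat (-3.61), Acot4 (-3.45), Plin2 (-3.43), Vnn1 (-3.38) and Cpt1b (-3.27). Next came Gadd45b (-2.98), Ucp2 (-2.96), Aldh3a2 (-2.91), Mgll (-2.76), Cdkn1a (-2.67), Slc22a5 (-2.63), Acacb (-2.53), Pex11a (-2.51), Slc16a1 (-2.16), Acaa1b (-2.07), Hadhb (-2.07) and Elovl5 (-2.03). Smaller interactions below 0 were those of Acadm (-1.97), Ephx2 (-1.86), Pltp (-1.84), Me1 (-1.73), Aqp4 (-1.62), Lpl (-1.61), Mttp (-1.58) and Pex19 (-1.55). The smallest were those of E2f8 (-1.34), Srxn1 (-1.2), Mthfd1l (-1.12), Cadm1 (-1.03), Plekhb2 (-0.95), Isoc2b (-0.84), Cpt1a (-0.79), Vac14 (-0.73), Slc45a3 (-0.69) and Cyp8b1 (-0.64). Above 0, the highest were those of Saa2 (10.71), Saa1 (8.6), Saa3 (6.42), Cyp2c55 (5.12), Apol9a (4.91), Hist1h2bb (4.81), Apol9b (4.79), S100a8 (4.79), Cyp2c70 (4.63), Hsd3b5 (4.56) and Cyp2c54 (4.52). They were followed by Cyp2c37 (4.33), Cyp2c50 (4.23), Lcn2 (4.03, a call lost without null fenofibrate library 1 and without any 1 of 8 other libraries), Slco1a4 (3.26), Cyp4f14 (3.08) and Thrsp (3.03). Next above 0 came Akr1d1 (2.91), Cyp1a2 (2.77), Cyp2b10 (2.60), Irf7 (2.58), Gls2 (2.36), Gbp10 (2.34), Gstm3 (2.19), Itih4 (2.16), Icam1 (2.11), Ces2a (2.10) and Ass1 (2.05). Smaller values above 0 belonged to C9 (1.95), C8b (1.94), F11 (1.93), Asl (1.75), C8a (1.69), Gstm1 (1.62) and Cyp3a11 (1.6). The smallest above 0 belonged to Trf (1.49), Cry1 (1.42), Cyp2c29 (1.38), Cyp7b1 (1.35), Cyp2f2 (1.16), Cyp27a1 (1.14), Timd4 (1.14), Apoc3 (1.10), Dbp (0.98) and Clec4f (0.93).

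Loci with no gene identifier, which no comparison used, took a larger share of counts in wild type fenofibrate, 1.36% ± 0.17 (SD, n = 3; 1.21% to 1.54%), than in wild type control, 0.758% ± 0.0359 (0.717% to 0.782%). These groups did not overlap. In the null the shares were 0.961% ± 0.0703 in control and 0.943% ± 0.11 with fenofibrate. The Mup share of counts moved in the same libraries, and its part in these values was not tested.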

How the results depend on the processing

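With library totals in place of TMM 7432 genes were called in the interaction (3.58% of them above 0, against 47.9%), 10396 in wild type, 95 in the null and 2731 between the genotypes on control diet. Of the 3178 calls 1925 remained and 559 changed sign. This split and the list values under it were chosen after seeing the data. Under that scaling the interactions of Apoa1 (-0.51), Cyp7a1 (-0.03), Gsta1 (-0.60), Gstm4 (-0.19), Csad (-0.28), Gstt3 (-0.16) and Apoa5 (-0.34), none of them called, turned negative, and the calls of Apoc3, Icam1, Cyp27a1, Cyp7b1, Cyp2f2, Cry1, Dbp, Clec4f, Timd4 and Cyp2c29 were lost. Calls were gained below 0 by Ppara, Scd1, Fasn, Srebf1, Angptl4 and Neat1. The median gene moved by the scaling's own construction.

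The interaction called 3161 genes with RLE factors, 3174 without the Mup loci, 2933 with no filter, 3381 with DESeq2, 2679 with only the 12 libraries and 871 when tested against 1.5-fold. The null count was 518 with DESeq2 and 113 with only the 12 libraries, and the cause was not tested. Leaving out 1 library gave 2641 to 3316 calls in the interaction and 53 to 485 in the null. With both arms at an adjusted p of 0.01, 6 genes rose in both, 6 fell in both, 10 went opposite ways, 13 were called in the null alone and 557 in neither, with 11 shared responses. With at most 2 mismatches the promoter shares were 3.75% below 0, 3.81% above and 3.23% over all.

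Of 95 named genes called, 79 kept their call under every alternative. Library totals move the median gene down, so that alternative could hardly cost a call below 0. Leaving out 1 library turned 4 genes negative, of which Lcn2 alone had been called: Lcn2 ran from -0.08 (without null fenofibrate library 1) to 4.60, Cyp7a1 from -0.09 (the same library) to 1.10, Fgf21 from -1.68 (null fenofibrate library 2) to 2.14 and Gsta1 from -0.03 (wild type fenofibrate library 3) to 0.36. With a replicate block 3082 genes were called, 201 in the null, and Lcn2 alone of the named genes was lost. Deviations of same-numbered libraries correlated at -0.219 to 0.193 (median 0.033, 4 of 18 pairs over 0.1). Within a genotype all 6 such pairs were above 0 (0.032 to 0.193, 4 over 0.1), and other pairs ran from -0.171 to 0.067. Since not every pair was over 0.1, the numbers were not taken as pairs. Within a genotype the medians were nonetheless 0.108 for same-numbered pairs and -0.058 for the others. The replicate block was shared by all groups, and a pairing within each genotype was not tested. The 25 genes with no counts in any null library have a null response set by the prior count, and whether more depth would change this was not tested.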
